A study of Mus musculus with 10 samples.

Results

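The lipogenic regulators and enzymes of the liver were described here as 10 genes, the transcription factor genes Srebf1 and Mlxipl and the genes Fasn, Acaca, Acacb, Acly, Me1, Thrsp, Pnpla3 and Acss2. The genes were chosen by function, with earlier results of these data known. Each was represented by the probe set with the highest mean over the 10 arrays among the probe sets annotated to that symbol alone. All 10 were measured and passed the filter on dim genes, among 18193 genes with a named probe set, of which 11062 passed. Liver RNA came from female mice of the inbred strains DBA/2J (D2) and C57BL/6J (B6) after 0, 1, 4, 12 and 21 weeks on a diet rich in fat and cholesterol. The groups were D2 fed (weeks 1, 4, 12 and 21, 4 arrays), D2 at week 0 (1 array), B6 fed (the same weeks, 4 arrays) and B6 at week 0 (1 array). Each array held a pool of equal amounts of RNA from 5 mice, so the spread between mice was not measured and the weeks stood in for replicates. The mice's ages are not given in the sources used here, so weeks on the diet and age cannot be told apart.

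De novo lipogenesis turns excess carbohydrate into fatty acids in the hepatocyte cytosol. Acly splits citrate into acetyl-CoA, Acss2 makes acetyl-CoA from acetate, Acaca and Acacb carboxylate it to malonyl-CoA, Fasn builds palmitate from malonyl-CoA, and Me1 supplies NADPH. Srebf1 encodes SREBP-1, whose liver form is induced by insulin and by the sterol sensor LXR, and Mlxipl encodes ChREBP, which responds to glucose metabolites. Thrsp (Spot 14) is a lipogenic protein induced by carbohydrate and thyroid hormone, and Pnpla3 is a lipid droplet protein whose gene is a target of both factors. SREBP-2, encoded by Srebf2, drives cholesterol synthesis and is held back when sterols are plentiful.

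The promoter windows of the genes are shown first, because some of the genes had like profiles over the arrays. The RefSeq windows (assembly GRCm38.p6) cover 300 bases each, mostly upstream of an annotated start and ending shortly after it, and all 10 genes matched, with 14 windows. Fasn (chr11:120824498-120824797 on the minus strand), Acly (chr11:100527951-100528250 on the minus strand) and Thrsp (chr7:97417501-97417800 on the minus strand) are shown for their parallel profiles. Acss2 (chr2:155517793-155518092 on the plus strand) and Acacb (chr5:114165268-114165567 on the plus strand) are shown because both were below week 0 in most fed arrays. The Mlxipl windows (chr5:135106641-135106940 on the plus strand, and chr5:135089640-135089939 on the plus strand) held the 2 rarest motifs. Capitals mark motif matches on either strand, and each sequence runs 5′ to 3′ along its gene.
Fasn: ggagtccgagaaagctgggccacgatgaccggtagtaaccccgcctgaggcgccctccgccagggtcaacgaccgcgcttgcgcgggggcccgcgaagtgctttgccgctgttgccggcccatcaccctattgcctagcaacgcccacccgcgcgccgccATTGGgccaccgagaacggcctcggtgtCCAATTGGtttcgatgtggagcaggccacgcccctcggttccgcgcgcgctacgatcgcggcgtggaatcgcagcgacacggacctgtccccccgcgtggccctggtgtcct
Acly: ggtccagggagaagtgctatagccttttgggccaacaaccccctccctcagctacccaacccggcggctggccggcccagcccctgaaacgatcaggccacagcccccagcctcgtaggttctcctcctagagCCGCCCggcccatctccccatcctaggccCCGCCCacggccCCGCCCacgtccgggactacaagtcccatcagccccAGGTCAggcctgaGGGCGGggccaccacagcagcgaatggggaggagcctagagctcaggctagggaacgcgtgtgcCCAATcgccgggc
Thrsp: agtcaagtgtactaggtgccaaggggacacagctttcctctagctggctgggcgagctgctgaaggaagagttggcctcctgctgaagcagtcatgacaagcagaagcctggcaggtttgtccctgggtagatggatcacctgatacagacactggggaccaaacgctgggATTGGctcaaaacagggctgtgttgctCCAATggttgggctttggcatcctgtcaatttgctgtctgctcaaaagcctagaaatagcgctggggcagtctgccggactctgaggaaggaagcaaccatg
Acss2: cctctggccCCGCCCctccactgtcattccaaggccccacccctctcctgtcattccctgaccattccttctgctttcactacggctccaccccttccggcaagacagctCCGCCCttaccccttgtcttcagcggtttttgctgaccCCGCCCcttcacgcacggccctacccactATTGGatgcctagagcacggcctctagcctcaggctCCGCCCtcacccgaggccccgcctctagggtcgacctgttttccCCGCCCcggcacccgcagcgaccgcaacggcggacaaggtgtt
Acacb: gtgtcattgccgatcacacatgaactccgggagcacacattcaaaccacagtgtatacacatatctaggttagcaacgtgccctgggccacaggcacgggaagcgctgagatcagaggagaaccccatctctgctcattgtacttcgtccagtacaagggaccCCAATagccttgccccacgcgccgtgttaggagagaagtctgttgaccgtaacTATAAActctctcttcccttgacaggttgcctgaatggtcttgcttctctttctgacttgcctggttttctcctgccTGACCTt
Mlxipl window 1: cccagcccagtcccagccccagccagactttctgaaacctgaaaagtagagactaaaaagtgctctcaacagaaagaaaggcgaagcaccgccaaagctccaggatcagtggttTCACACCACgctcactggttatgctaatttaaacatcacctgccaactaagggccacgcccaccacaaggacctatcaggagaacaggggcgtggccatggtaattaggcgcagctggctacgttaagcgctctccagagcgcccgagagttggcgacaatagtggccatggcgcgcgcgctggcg
Mlxipl window 2: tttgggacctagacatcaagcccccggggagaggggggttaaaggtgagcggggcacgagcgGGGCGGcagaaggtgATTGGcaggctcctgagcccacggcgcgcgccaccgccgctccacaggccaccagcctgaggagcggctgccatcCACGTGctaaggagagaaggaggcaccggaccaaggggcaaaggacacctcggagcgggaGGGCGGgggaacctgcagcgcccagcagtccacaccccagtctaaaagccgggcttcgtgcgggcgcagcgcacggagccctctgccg

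6 motifs were searched on both strands. The sterol regulatory element TCACNCCAC, a binding sequence of SREBP proteins, was in 1.24% of 32851 RefSeq windows, and among the 14 windows it was found once, in Mlxipl window 1 at 136 bases before the start. The E-box CACGTG, one form of the site bound by USF and ChREBP proteins, was in 7.15% of all windows and among the 14 only in Mlxipl window 2, at 98 bases before the start. The CCAAT box CCAAT, the site of NF-Y, was in 37.4% of all windows and in 10 of the 14, which belonged to 9 of the 10 genes. In Fasn 2 of its 3 CCAAT boxes overlap each other on opposite strands, at 62 and 59 bases before the start. The GC box GGGCGG, an Sp1 site, was in 35.7% of all windows and in 7 of the 14. It occurred 5 times in Acss2 and 4 times in Acly and was not found in Fasn, Thrsp or Acacb. TATAAA, in 13.6% of all windows, was found in Acacb at 34 bases before the start, and the nuclear receptor motif AGGTCA, in 16.3% of all windows, was found in Acacb and Acly. The Acaca window, with 39.7% G and C, held none of the 6. It covers a single annotated start, and whether that start marks a promoter used in liver was not tested. A match describes letters in this window and is not evidence that a factor binds there.

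**Figure D1:**
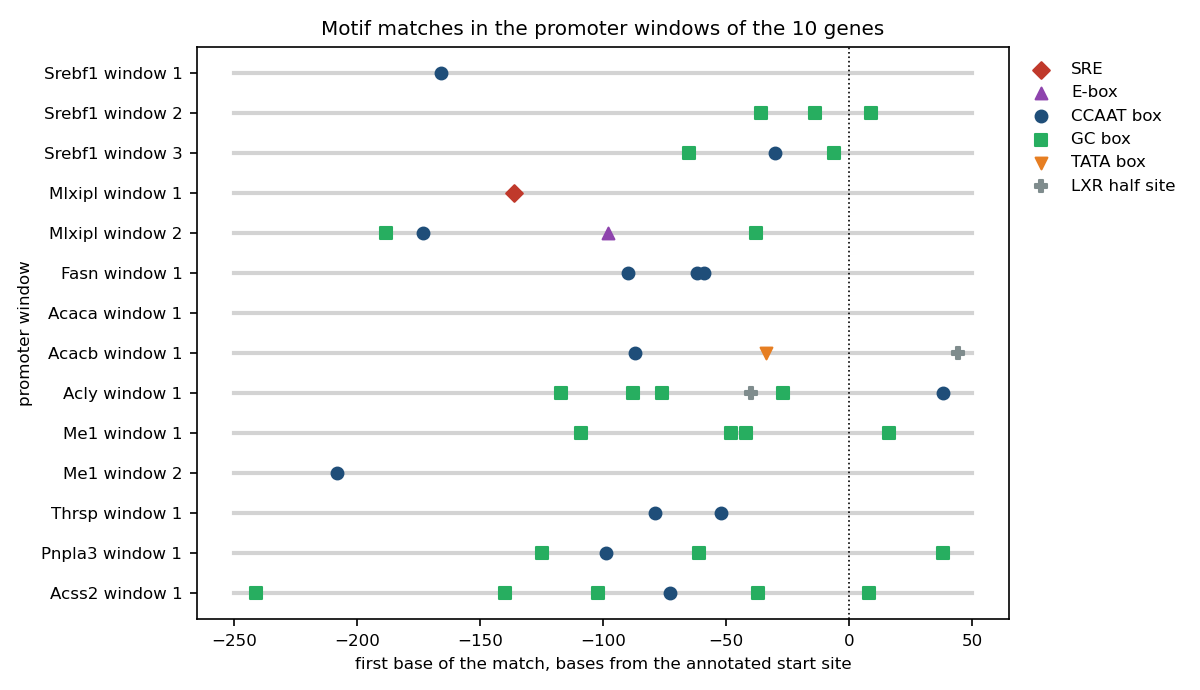
Positions of the motif matches in the 14 RefSeq windows of the 10 genes, in bases from each annotated start (dotted line). Each symbol is the first base of a match on either strand. CCAAT boxes lie in 10 windows, and the sterol regulatory element and the E-box each lie in a single Mlxipl window.

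The arrays differed in overall brightness. The 2% trimmed mean of the deposited signal ranged from 56.2 to 89.1 and was lowest in both week 0 arrays, so quantile normalised values are given, as log2(signal + 1.05). Arrays of a strain correlated with r from 0.957 to 0.982 in D2 and from 0.911 to 0.967 in B6. The 7 hepatocyte markers summed to between 37000 and 40500 in D2 fed arrays and 40900 in D2 at week 0. In B6 they summed to between 39500 and 40900 in fed arrays and 42800 at week 0. After normalisation the marker Apoa1 had the same log2 value, 13.16, in every array, and Alb ranged only from 12.51 to 12.64. Sums led by signals this bright and even cannot show whether the hepatocyte share was alike between arrays, which was not tested. Adipose tissue also makes lipogenic transcripts, and of 6 adipocyte markers 4 were measured and 0 passed the filter, with sums between 13.5 and 56.3 over all arrays. The 8 macrophage markers summed to between 2000 and 2940 in D2 fed arrays and 2370 in D2 at week 0, and to between 2200 and 12400 in B6 fed arrays and 2110 in B6 at week 0, with the highest sum at week 4 in B6. In whole liver, fewer cells of a type and less RNA per cell cannot be told apart.

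The strain comparison asked which of the genes differed between D2 and B6 livers over all weeks. Acaca, the cytosolic acetyl-CoA carboxylase whose malonyl-CoA feeds Fasn, had a lower signal in D2. Its log2 signal in D2 livers was 6.22, 6.39, 7.0, 7.29 and 7.36 at weeks 0, 1, 4, 12 and 21, against 7.27, 7.89, 7.68, 8.20 and 7.86 in B6 livers. D2 was the lower strain at each of the 5 weeks, by 1.05, 1.51, 0.68, 0.91 and 0.50 on the log2 scale, and the highest D2 array, at week 21, lay above the week 0 array of B6 but below every fed array of B6. The fitted difference was −0.93 ± 0.15 (SE, 5 arrays per strain), a signal 1.91-fold lower in D2. Its adjusted p was 0.00882 in limma, which treated each week as a pair. Of all 11062 genes 7.98% passed in either direction and 4.08% passed as lower in D2, so 1 of 10 members is near that background. D2 below B6 at all 5 weeks was met by 11.2% of all genes, and fed arrays of the strains that do not overlap by 15.8%, and Acaca was the 1 member in both counts. A second Acaca probe set with a dimmer signal differed by −0.47. Whether the probes detect the RNA of D2 and B6 equally well was not tested, for Acaca or any other gene.

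The other 9 members did not pass in the strain comparison. Thrsp differed by −0.75 ± 0.31 (adjusted p = 0.195), Fasn by −0.64 ± 0.34 (adjusted p = 0.294) and Acly, the citrate lyase, by −0.22 ± 0.24 (adjusted p = 0.624). Pnpla3 differed by 1.00 ± 0.49 (adjusted p = 0.257) and Acacb, the mitochondrial carboxylase that also restrains fatty acid oxidation, by 0.40 ± 0.22 (adjusted p = 0.313). These intervals are wide, from −1.46 to −0.03 for Thrsp and from −0.13 to 2.12 for Pnpla3 (95%), and do not show that the strains were alike. Without the arrays of week 1 the differences were −0.38 for Thrsp and −0.19 for Fasn, and without those of week 12 that of Pnpla3 was 0.56. The regulators Srebf1 (0.18 ± 0.39, adjusted p = 0.826) and Mlxipl (0.14 ± 0.17, adjusted p = 0.668) had differences smaller than their errors. Me1 differed by 0.24 ± 0.19 (adjusted p = 0.481) and Acss2 by 0.01 ± 0.23 (adjusted p = 0.98). A second Me1 probe set differed by −0.50, opposite in sign to the brighter one.

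The array differences between the strains varied in size and sign over the weeks for most of the genes. At week 1 the D2 array was below the B6 array for 9 of the 10 members, where 49.3% of all genes were lower, with a median difference of −0.87. Fasn stood at 8.06 in D2 against 10.50 in B6 at that week, Thrsp at 9.56 against 11.75, and Acly at 8.51 against 9.87. At week 12 the D2 array was the lower for 3 members, where 52.3% of all genes were lower, and the median difference was 0.32 against −0.02 over all genes. Each week had 1 array per strain, so these differences by week carry no test.

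**Figure D2:**
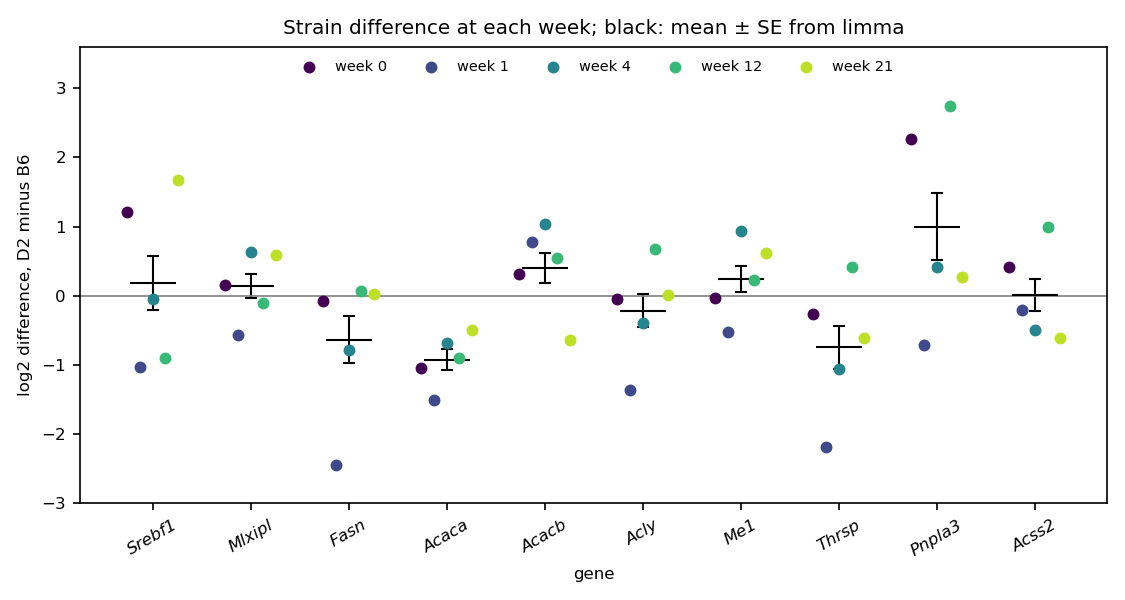
Log2 difference between the D2 and the B6 array at each of the 5 weeks (coloured points, 1 array per strain and week) for the 10 genes, with the limma mean and SE in black. All 5 points of Acaca lie below 0, between −1.51 and −0.50, while the points of the other genes lie on both sides of 0.

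In the strain comparison, genes around the pathway passed in both directions, from lists that name no member. Among the genes of SREBP processing 1 of 6 was higher in D2 and 0 were lower. It was Scap, the escort that carries SREBP precursors to the Golgi, with a mean difference of 0.63 ± 0.09 (adjusted p = 0.00481). Of 9 co-regulators 0 were higher and 1 was lower in D2, Pparg, a nuclear receptor that raises lipid storage (−0.80 ± 0.15, adjusted p = 0.0158). Of 8 desaturases and elongases 1 was higher, Elovl5 (0.60 ± 0.12), and 1 lower, Scd2 (−1.11 ± 0.25), and of 8 kept genes of triglyceride synthesis Lpin1, a phosphatidate phosphatase, was lower, at −2.62 ± 0.30. Scap and Lpin1 kept their calls when any single array was left out, while Pparg, Elovl5 and Scd2 lost theirs in some of these fits, with adjusted p-values of up to 0.0771 for Pparg, 0.0772 for Elovl5 and 0.101 for Scd2. Fgf21, a hormone gene in the lists of ChREBP targets and fasting markers, was higher in D2 (2.32 ± 0.29, adjusted p = 0.00307 in limma). It kept its call with any single array left out. Its B6 values at weeks 4 and 12 were 3.79 and 4.02, near the filter level of 3.74, so the size of the difference rests partly on dim values. The clock genes Nr1d1 (1.16, adjusted p = 0.0229) and Per3 (0.94, adjusted p = 0.0392) were higher in D2, with adjusted p-values of up to 0.0774 for Nr1d1 and 0.114 for Per3 when 1 array was left out. Without the replicate block these calls were lost too (adjusted p = 0.394 for Nr1d1 and 0.427 for Per3 in limma). The B6 value of Nr1d1 at week 0, 3.02, lay below the filter level. Of the other lists, Ppara, Akt2 and Fdft1 were higher in D2 and Abcg5, Tkfc and Sc5d were lower, and with 1 array left out Sc5d alone of these 6 kept its call in all such fits. Sc5d lost it with the mean of all probe sets (adjusted p = 0.238 in limma). The macrophage markers were lower in D2 in 8 of 8 cases (median −0.96, 0 called) and the stellate markers in 8 of 8 (median −0.59, 2 called). Their part in the strain values of the lipogenic genes was not tested.

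Feeding was compared as 8 fed arrays over 2 taken at week 0. Srebf1, Mlxipl and Acaca were above their strain's week 0 array in all 8 fed arrays, which 11.1% of all genes were. None of the 10 members passed the test after adjustment, where 0.651% of all genes did (72 of 11062). By limma's unadjusted p under 0.05, 4 members and 1931 genes would have passed. The members' median difference was 0.65 on the log2 scale, against 0.01 over all genes. At the deposited scale, where the median of all genes itself shifted by 0.52, Srebf1, Mlxipl, Acaca and Pnpla3 passed.

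Srebf1 had log2 signals of 9.23, 9.70, 10.68, 9.68 and 10.92 in D2 livers at weeks 0, 1, 4, 12 and 21, and of 8.02, 10.73, 10.73, 10.59 and 9.24 in B6 livers. The B6 values stood 2.56 to 2.71 above week 0 at weeks 1, 4 and 12 and 1.22 above it at week 21, whereas the D2 values stood 0.45 to 1.69 above. Its fitted diet difference was 1.66 ± 0.46 (SE, 8 fed and 2 week 0 arrays, adjusted p = 0.11 in limma). Mlxipl had 9.52, 9.91, 10.38, 10.33 and 10.35 in D2 livers and 9.38, 10.48, 9.75, 10.44 and 9.76 in B6 livers. Its changes were smaller, between 0.37 and 1.11, and its diet difference was 0.73 ± 0.21 (adjusted p = 0.12). Acaca differed by 0.72 ± 0.23 (adjusted p = 0.144), with fed arrays 0.17 to 1.14 above week 0 in D2 and 0.41 to 0.93 above it in B6.

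Acacb and Acss2 had lower values in most fed arrays than at week 0. Acacb had log2 signals of 7.90, 6.76, 5.84, 8.04 and 5.87 in D2 livers at weeks 0, 1, 4, 12 and 21, and of 7.59, 5.99, 4.80, 7.49 and 6.52 in B6 livers. Acss2 had 9.47, 8.30, 7.92, 9.84 and 7.76 in D2 livers and 9.06, 8.51, 8.42, 8.84 and 8.39 in B6 livers. Both genes were below week 0 in 7 of 8 fed arrays, the exception being week 12 of D2, and below it in all 6 fed arrays outside week 12, as 13.7% of all genes were. Neither difference passed, at −1.33 ± 0.65 for Acacb (adjusted p = 0.317) and −0.76 ± 0.42 for Acss2 (adjusted p = 0.374). Without the B6 array of week 4, which had the highest macrophage sum and the lowest Acacb value, the Acacb difference was −1.10. The fitted diet differences of the 2 acetyl-CoA carboxylase genes were of opposite sign, 0.72 for Acaca and −1.33 for Acacb, and neither passed. A second Acacb probe set, dimmer and below the filter level, had a diet difference of 0.74.

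**Figure D3:**
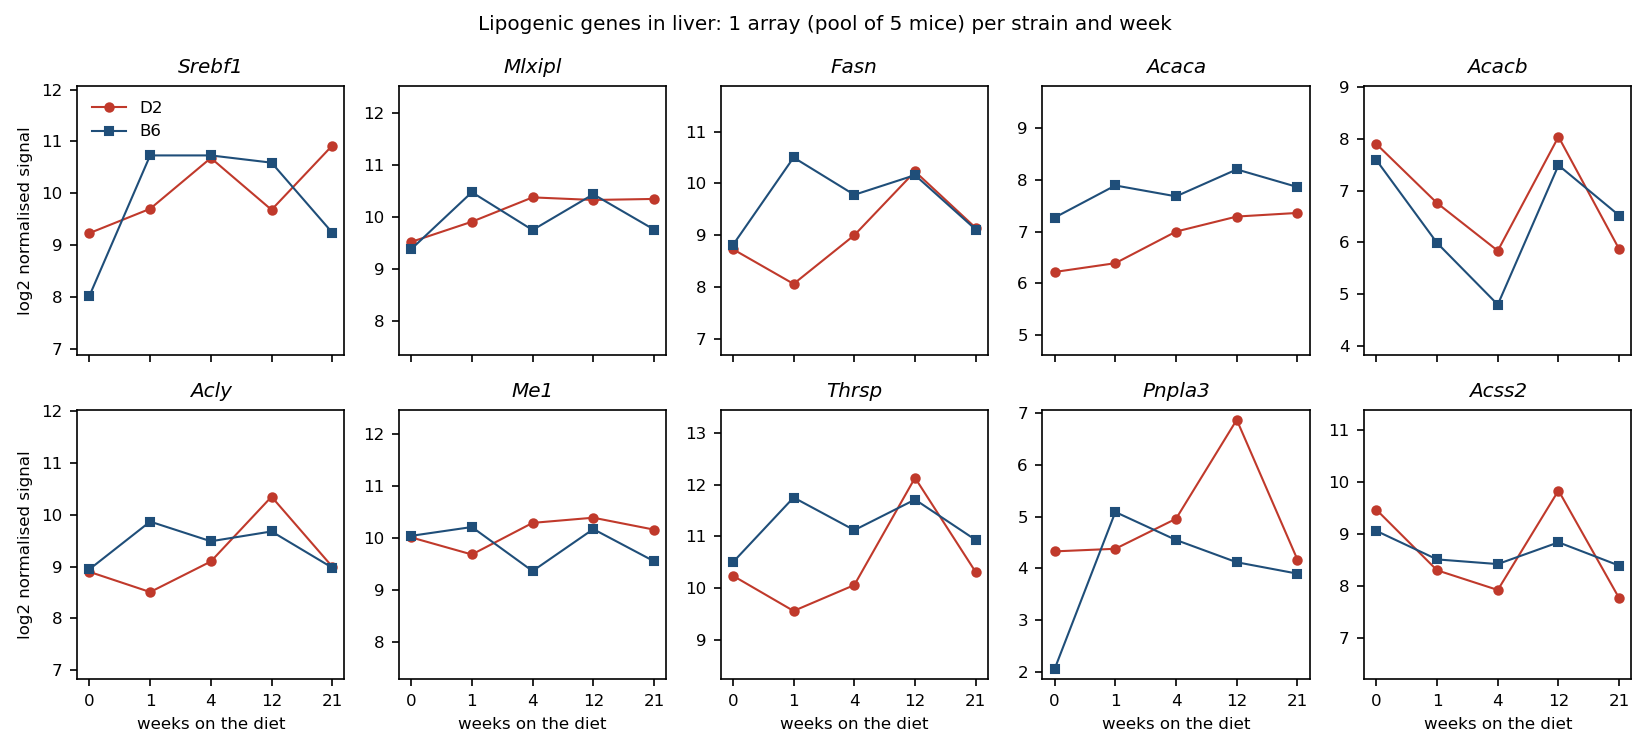
Log2 normalised signal of the 10 genes at 0, 1, 4, 12 and 21 weeks on the diet (weeks evenly spaced, not to scale) in D2 (red circles) and B6 (blue squares), each point being 1 array of pooled RNA from 5 mice. Acaca is lower in D2 at every week, Srebf1 is lowest at week 0 in both strains, and Acacb and Acss2 have their highest values at weeks 0 and 12.

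Fasn, Acly and Thrsp had their highest single arrays at week 12 in D2 and at week 1 in B6, where week 12 came next. Fasn had log2 signals of 8.73, 8.06, 9.0, 10.23 and 9.14 in D2 livers at weeks 0, 1, 4, 12 and 21, and of 8.81, 10.50, 9.78, 10.16 and 9.11 in B6 livers. Thrsp had 10.24, 9.56, 10.06, 12.13 and 10.31 in D2 livers and 10.50, 11.75, 11.12, 11.71 and 10.93 in B6 livers. Acly had 8.90, 8.51, 9.10, 10.35 and 9.0 in D2 livers and 8.95, 9.87, 9.49, 9.68 and 8.98 in B6 livers. For all 3, the fed B6 arrays lay above week 0, highest at week 1 and next highest at week 12. The B6 values at those weeks were close for Thrsp, 11.75 and 11.71, and 1 array per week carries no test of timing. The D2 values of the 3 genes were lowest at week 1 and highest at week 12. Their diet differences were 0.73 ± 0.47 for Fasn (adjusted p = 0.444), 0.58 ± 0.51 for Thrsp (adjusted p = 0.587) and 0.45 ± 0.37 for Acly (adjusted p = 0.559). With 1 array left out at a time these ranged from 0.38 to 1.08 for Fasn, from 0.28 to 0.88 for Thrsp and from 0.27 to 0.57 for Acly. The lowest Fasn and Thrsp values came without the week 0 array of B6, and the lowest Acly value without the week 12 array of D2.

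Pnpla3 is a lipid droplet gene with a dim signal here. Its log2 signal was 4.33, 4.38, 4.96, 6.87 and 4.17 in D2 livers at weeks 0, 1, 4, 12 and 21, and 2.06, 5.09, 4.55, 4.12 and 3.90 in B6 livers. The B6 array of week 0 lay below the filter level of 3.74, so the size of the B6 change rests on a dim value, and without that array the diet difference was 0.77. The diet difference was 1.56 ± 0.63 (adjusted p = 0.239). Me1 varied least, between 9.36 and 10.39 over all arrays, and its diet difference was −0.05 ± 0.24 (adjusted p = 0.937).

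Within each strain, none of the members passed in limma, where 0.118% of all genes did in D2 and 0.118% in B6. By the unadjusted p under 0.05 there were 2 members in D2 and 3 in B6, among 1269 and 1390 genes. Srebf1 differed from week 0 by 1.01 ± 0.62 in D2 (adjusted p = 0.589) and by 2.30 ± 0.62 in B6 (adjusted p = 0.227). Pnpla3 differed by 0.77 ± 0.87 in D2 (adjusted p = 0.802) and by 2.36 ± 0.87 in B6 (adjusted p = 0.329). Mlxipl differed by 0.72 ± 0.31 in D2 and by 0.73 ± 0.31 in B6. Acaca differed by 0.79 ± 0.34 in D2 and by 0.64 ± 0.34 in B6. Acacb differed by −1.27 ± 0.96 in D2 and by −1.39 ± 0.96 in B6, and Acss2 by −1.01 ± 0.62 in D2 and by −0.52 ± 0.62 in B6. Fasn differed by 0.38 ± 0.68 in D2 and by 1.08 ± 0.68 in B6, and Thrsp by 0.28 ± 0.75 in D2 and by 0.88 ± 0.75 in B6. Acly differed by 0.34 ± 0.56 in D2 and by 0.55 ± 0.56 in B6, and Me1 by 0.12 ± 0.35 in D2 and by −0.22 ± 0.35 in B6. Without the week 12 array of D2 the D2 values were −0.03 for Acly and −0.26 for Thrsp.

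The interaction asked whether the strains' responses differed. The D2 response minus the B6 response was −1.28 for Srebf1 (95% interval −3.23 to 0.67, adjusted p = 0.89 in limma), −1.59 for Pnpla3 (−4.35 to 1.17, adjusted p = 0.916) and −0.70 for Fasn (−2.85 to 1.45, adjusted p = 0.943). No member passed, nor had any an unadjusted p under 0.05, which 674 genes had, and 0.00904% of all genes (1 gene) passed after adjustment. The other 7 members had values between −0.60 and 0.34. In D2, 3 of the 10 members lay above week 0 in all 4 fed arrays, as did 27.3% of all genes, and in B6 7 did, as did 26.7% of all genes. In each strain the 4 comparisons share its single week 0 array, and these counts were not tested against each other.

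No member passed the test of a trend over the weeks of feeding. Fitted to the 8 fed arrays and allowing for strain, the slope per log2(week) ranged from −0.05 to 0.15 per doubling of the weeks. The percentage of all genes that passed was 0, with 523 at an unadjusted p under 0.05 in limma. Acaca was the 1 member among those, with a slope of 0.13 ± 0.05 (adjusted p = 0.972).

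The week 12 array of D2 stood out among the fed arrays of that strain, a comparison chosen after the values were seen. All 10 members were above week 0 there, as 47.6% of all genes were, with a median of 0.94. 7 members were above every other fed array of D2, as 22.3% of all genes were. Against the mean of the other 3 fed D2 arrays, Pnpla3 was higher by 2.37, Thrsp by 2.16, Acacb by 1.88, Acss2 by 1.85, Fasn by 1.5 and Acly by 1.48. Differences of these sizes or larger were reached by between 0.136% and 0.452% of all genes. Srebf1 lay 0.75 below that mean. In B6, 3 members were above every other fed array at week 12, as were 28.1% of all genes. They were Acacb, which was higher than the mean of the other fed B6 arrays by 1.72 (0.181% of all genes reached this), Acss2 (0.40) and Acaca (0.39). In the week 1 array of D2, by contrast, 6 members were below week 0, as 48.2% of all genes were.

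**Figure D4:**
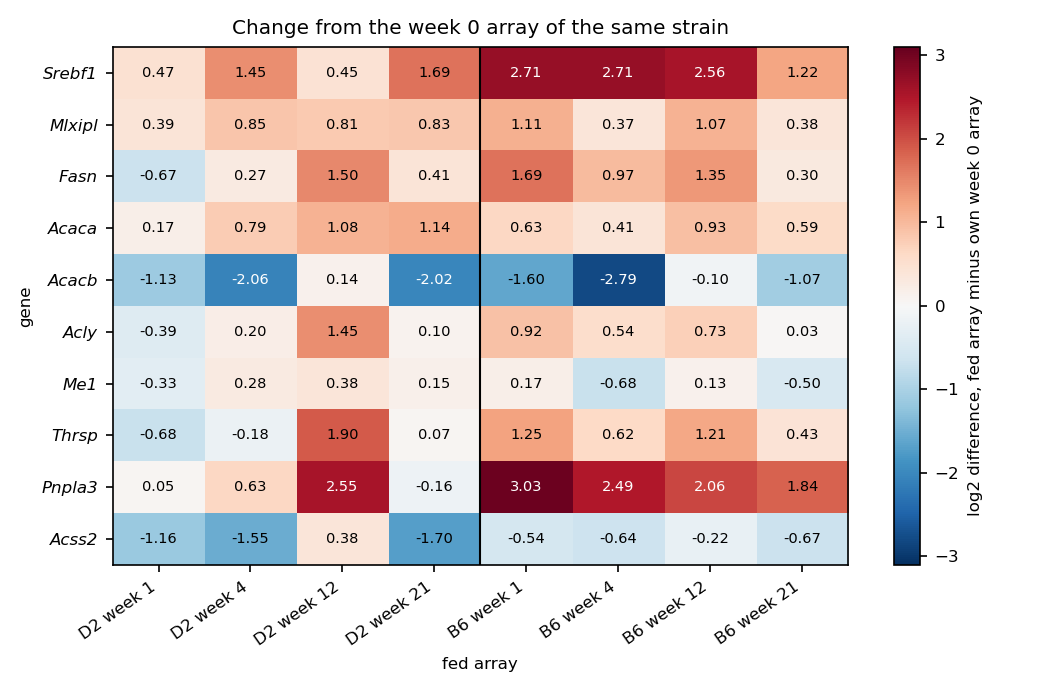
Log2 difference of each fed array from the week 0 array of its own strain for the 10 genes, with D2 arrays on the left and B6 arrays on the right. The rows of Srebf1, Mlxipl and Acaca are positive throughout, and Acacb and Acss2 are negative except at week 12 of D2.

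Some of the genes had like profiles over the 10 arrays, which share strains and weeks. Fasn and Thrsp correlated with r = 0.94, Acly and Thrsp with 0.94, and Fasn and Acly with 0.93. Srebf1 and Mlxipl correlated with 0.78, and Acacb and Acss2 with 0.80. Srebf1 ran against Acacb (r = −0.64) and Acss2 (r = −0.54). Over the 45 pairs of members the median r was 0.405, against 0.001 over pairs within an evenly spaced subset of the kept genes. That subset was taken without regard to how much its genes varied. Without the D2 array of week 12 the median was 0.234, while Fasn and Acly correlated with 0.99, Fasn and Thrsp with 0.95, Srebf1 and Mlxipl with 0.84, and Acacb and Acss2 with 0.74. With other single arrays left out, Srebf1 and Mlxipl ranged from 0.65, without the B6 array of week 0, to 0.91. Over the 8 fed arrays with strain means removed they correlated with 0.54, where the median over all pairs was 0.556.

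Acss2 and Acacb had profiles like that of the cholesterol synthesis genes, a relation looked at after the values were seen. With the mean of 13 measured genes of cholesterol synthesis, Acss2 correlated with r = 0.94 and Acacb with 0.77 over the 10 arrays, Fasn with 0.26 and Srebf1 with −0.46. Acly correlated with 0.50, Me1 with 0.49, Thrsp with 0.42 and Pnpla3 with 0.31, and Mlxipl with −0.14 and Acaca with −0.23. Without the D2 array of week 12 the values were 0.90 for Acss2, 0.71 for Acacb, −0.02 for Fasn and −0.55 for Srebf1. They were 0.04 for Acly, 0.31 for Me1 and 0.07 for Thrsp, and −0.40 for Pnpla3, −0.47 for Mlxipl and −0.31 for Acaca. The median change of those 13 genes from week 0 was −2.02, −1.78, 1.03 and −2.13 in D2 at weeks 1, 4, 12 and 21, and −0.94, −1.37, −1.01 and −1.99 in B6. In D2, week 12 was the single fed array above week 0, as it was for Acss2 and Acacb. In B6 at week 12, Acacb changed by −0.10 and Acss2 by −0.22, against −1.01 for the 13 genes. All 13 genes had a negative diet difference (median −1.12), and 0 passed. Srebf2 differed by −0.80 ± 0.28 (adjusted p = 0.189).

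**Figure D5:**
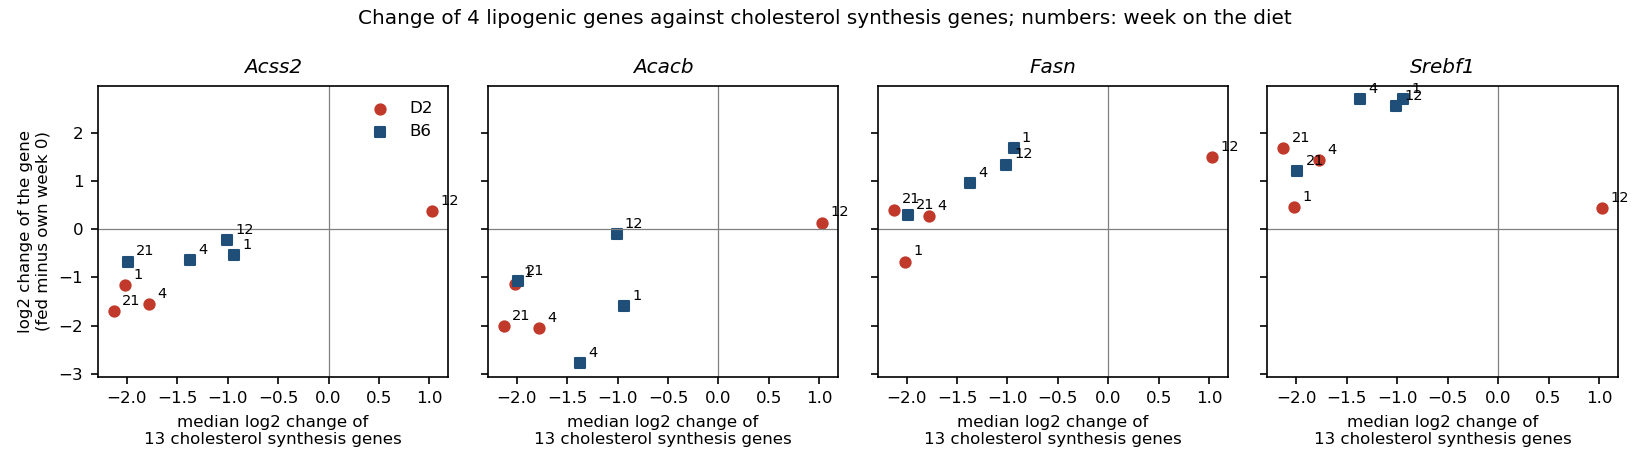
Change of Acss2, Acacb, Fasn and Srebf1 from week 0 (vertical axis, log2) against the median change of 13 cholesterol synthesis genes (horizontal axis, log2) in the 4 fed D2 arrays (red circles) and 4 fed B6 arrays (blue squares), numbered by week. The D2 array of week 12 lies alone to the right of 0, at 1.03, and Srebf1 is positive in every array.

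The genes whose profiles were most like the mean of the 10 members were found among 2015 other genes with an SD of at least 0.5 over the 10 arrays. They were Aacs (r = 0.882), which activates acetoacetate for lipid synthesis, the acyl-CoA synthetase gene Acsl3 (0.868), D130043K22Rik (0.832), the elongase gene Elovl6 (0.827), Slc22a27 (0.796), Itpr3 (0.75), Adcy5 (0.742), Mid1ip1 (0.726), a paralogue of Thrsp, Etv2 (0.702) and Bach2 (0.699). Most like Srebf1 were Rfc3 (0.946), Gadd45a (0.911) and Rab20 (0.887), and most like Mlxipl were D130043K22Rik (0.907), Tgm1 (0.892) and Dclk3 (0.876). These correlations rest on 10 arrays and describe likeness of profile alone.

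Among the genes around the pathway in the diet comparison, Scd1, the stearoyl-CoA desaturase that acts on the products of Fasn, rose with feeding. Its log2 signal in D2 livers was 11.23, 12.53, 12.63, 12.33 and 12.57 at weeks 0, 1, 4, 12 and 21, against 12.26, 12.78, 12.81, 12.75 and 12.74 in B6 livers. The fed values lay near those of the hepatocyte marker Alb, 12.51 to 12.64 over all arrays. Whether differences between signals this bright were compressed was not tested. All fed arrays lay above both week 0 arrays, and the diet difference was 0.90 ± 0.14 (adjusted p = 0.0232), with a difference of 1.29 ± 0.12 within D2 (adjusted p = 0.00306). After median centring of each array the call within D2 was lost (1.09, adjusted p = 0.133 in limma), as it was with the mean of all probe sets (1.84, adjusted p = 0.055 in limma). Without the week 0 array of D2 the diet difference of Scd1 was 0.51 (adjusted p = 0.151 in limma). It was the 1 gene of 8 LXR targets and the 1 of 8 desaturases and elongases that passed, with none lower, and the lists' medians were 0.64 and −0.09. Of 6 genes of SREBP processing none passed, and the largest difference was that of Insig2, which retains SREBP precursors in the endoplasmic reticulum and is lowered by insulin in liver (−1.51 ± 0.51, adjusted p = 0.171). Of 9 co-regulators none passed, with Mid1ip1 at 1.34 ± 0.38 (adjusted p = 0.12). None passed among 7 ChREBP targets (median −0.15), 7 genes of glucose entry and insulin signalling (median 0.04), 9 of citrate and NADPH supply (median 0.03) and 8 of triglyceride synthesis (median −0.22). Of 9 genes that act as brakes on lipogenesis 0 rose and 1 fell. That gene was Pdk4, which is also in the list of fasting markers and lost its call without either week 0 array (adjusted p = 0.143 without that of D2 and 0.2 without that of B6 in limma).

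The 4 measured genes of the daily clock and 1 of 7 fasting markers passed the test between the fed and the week 0 arrays. Dbp, a clock output gene, rose by 3.92 ± 0.42 (adjusted p = 0.0139) and Nr1d1, which encodes the clock repressor REV-ERBα, by 2.80 ± 0.39 (adjusted p = 0.0154). Arntl, the gene of the clock activator BMAL1, fell by 2.46 ± 0.44 (adjusted p = 0.0399). The B6 array of week 0 for Nr1d1 (3.02) and the D2 array of week 12 for Arntl (3.34) lay below the filter level of 3.74. Pdk4, a kinase gene induced by fasting, was that fasting marker and fell by 2.90 ± 0.46 (adjusted p = 0.0232). All 7 had negative differences (median −1.0). Without the week 0 array of D2 none of Dbp, Nr1d1, Arntl and Pdk4 passed, at 3.51, 2.90, −2.28 and −3.17 (adjusted p from 0.0722 to 0.237), and without that of B6 Dbp alone of the 4 passed. Over the 10 arrays Dbp correlated with Srebf1 at r = 0.67 and with Mlxipl at 0.67, and without the B6 array of week 0 at 0.39 for Srebf1 and 0.50 for Mlxipl. The hour of collection and the feeding state before it are not given in the sources used here, and feeding on the diet and these markers cannot be told apart in the fed and week 0 arrays.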

How the data were processed

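Total RNA from pooled livers was hybridised to Affymetrix Mouse Genome 430 2.0 arrays, 1 array per strain and week. The authors deposited linear signal intensities made with GCOS, per the submitters' processing notes, with no version given. The table held 45101 probe sets, of which 64 controls were not used, 34945 had a single gene symbol, 932 had several and 9160 had none. All gene symbols come from GEO's platform annotation. Because the trimmed means differed between arrays, signals were quantile normalised and a pseudocount of 1.05, equal to the 10th percentile of the deposited values, was added before log2 was taken. Genes were kept where their brightest probe set's mean reached the 50th percentile, 3.74 on the log2 scale.

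Tests ran over all 11062 kept genes with limma 3.58.1 under R 4.3.3 (lmFit and trended eBayes) and Benjamini-Hochberg adjustment at 0.05. For D2 minus B6, week was entered as a block because the labels give 1 array of each strain at each week. The diet comparison and the trend had strain as a term, and the responses and their difference came from 4 group means. The single week 0 array of a strain was taken to have the same spread as fed arrays, and p-values measure the spread between weeks, not between mice. The number of arrays limits the precision. The members and gene lists were chosen with earlier results of these data known. All members were to be named in every comparison (for the interaction and the trend most are given as a range), and of each other list the genes that passed, up to 4 by size, or up to 2 by size where none passed. Some genes that the rule allows are not printed. Matplotlib 3.10.9 under Python 3.11.15 drew the figures. Alternatives were the deposited scale, median centring, a pseudocount of 16, no filter, the mean of all probe sets, eBayes without trend, no block, fed arrays alone, and arrays left out.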

Additional observations from a re-analysis of the deposited data

Results flagged for a closer look

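The fed arrays of each strain were checked gene by gene for a single array far from the rest (20 groups of 4 arrays), and 2 were found. The rule takes the 4 arrays as replicates, whereas they are different weeks on the diet, so no chance rate is given. Srebf1 in fed B6 livers was 9.24 at week 21, against values between 10.59 and 10.73 at the other fed weeks, a gap of 0.905 of the group's whole range. Mlxipl in fed D2 livers was 9.91 at week 1, against values between 10.33 and 10.38 at the other fed weeks, a gap of 0.906 of the range. Both remained above week 0 of their strain, at 8.02 for Srebf1 and 9.52 for Mlxipl.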

How the results depend on the processing

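The strain difference of Acaca kept its sign and its call in every alternative, between −1.04 and −0.70, including −0.93 with no replicate block (adjusted p = 0.0408 in limma). Of 740 alternative values of members, 701 kept their direction and side of the threshold, 31 changed sign, none of them called in any fit, and 8 gained a call. At the deposited scale the diet comparison called 4977 genes and 4 members (Srebf1 2.13, Mlxipl 1.19, Acaca 1.26, Pnpla3 1.94), the D2 response 45 genes, and the B6 response 1940 genes and 3 members (Srebf1, Mlxipl and Acaca). These are not relative to the shift of all genes, 0.52 for diet, 0.43 in D2 and 0.58 in B6. Values that changed sign there were Acss2 between strains (−0.05) and in B6 (0.01), and Me1 for diet (0.36) and in B6 (0.24). With all probe sets averaged, Acaca passed for diet (0.89, 1 member), Acly (0.04), Me1 (−0.13) and Acss2 (−0.11) changed sign between strains, as did Acacb (0.14) and Acly (−0.02) in B6, and the interaction called 0 genes. Median centring called 5 genes in D2, where Me1 turned to just below 0, and 0 in B6, the pseudocount of 16 called 2 and 0 (interaction 0), eBayes without trend 38 and 33 (interaction 0), and no filter 8 in D2, against 13 in each strain as reported. Without week 12 the counts were 427 between strains, 23 in D2 and 22 in B6, Acss2 differed by −0.23 between strains, and Acly (−0.03) and Thrsp (−0.26) changed sign in D2. With fed arrays alone, Srebf1 and Acss2 each differed by −0.08 between strains. With 1 array left out at a time, called genes ranged from 386 to 715 between strains, 14 to 95 for diet, 6 to 21 in D2, 0 to 22 in B6 and 0 to 1 for the interaction, and 0 members were called apart from Acaca between strains. In those fits Srebf1 ranged from −0.19 to 0.48, Acly from −0.45 to 0.06 and Acss2 from −0.23 to 0.17 between strains, Me1 from −0.22 to 0.12 for diet, and Acly from −0.03 to 0.58 and Thrsp from −0.26 to 0.60 in D2. Of 367 alternative values of other named genes 119 lost their call, and Scd1 for diet fell to 0.57 (adjusted p = 0.186) with median centring. The causes were not tested. Dim signal limits Pnpla3, Nr1d1 and Arntl, whose lowest arrays were under the filter level.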
